A study of Mus musculus with 2 samples.

Results

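The 10 genes studied here act in bile acid synthesis, conjugation, transport and sensing, and were followed in single-barcode RNA of mouse liver. They were picked by symbol as Cyp7a1, Cyp8b1, Cyp27a1, Cyp7b1, Slc27a5, Baat, Slc10a1, Abcb11, Nr1h4 and Nr0b2. All 10 were among the 32287 features of the deposited count matrices. Both libraries came from livers of wild-type C57BL/6J mice that received an adeno-associated virus (AAV) at 4 weeks of age and, 3 weeks after it, 15 mg/kg of concanavalin A (ConA) into a vein. ConA, a T-cell-activating lectin from plants, is used to bring on acute hepatitis in mice, and the livers were taken 6 hours after it. One library was labelled AAV-shBicd2, a short hairpin RNA against Bicd2, an adaptor protein of the dynein motor, and the other was labelled AAV-scramble, a control hairpin. No mouse without ConA was among the samples used here, and the labels do not give the promoter of the hairpin or how many mice were pooled.

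Bile acids are made from cholesterol in hepatocytes. In the classic route Cyp7a1 carries out the first and rate-limiting hydroxylation, and Cyp8b1 adds the hydroxyl group that directs the product towards cholic acid. In the alternative route Cyp27a1 oxidises the sterol side chain in mitochondria and Cyp7b1 hydroxylates the resulting oxysterols. The CoA ligase encoded by Slc27a5 and the acyltransferase encoded by Baat then join the bile acid to taurine or glycine. Slc10a1 (NTCP) takes conjugated bile acids up from blood, and Abcb11 (BSEP) pumps them into bile. Nr1h4 (FXR) is the nuclear receptor for bile acids. It induces Abcb11 and also Nr0b2 (SHP), a repressor of Cyp7a1 and Cyp8b1.

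The library labelled shBicd2 held 3038 barcodes and 5624055 unique molecular identifiers (UMIs, each standing for 1 captured RNA molecule), and the library labelled scramble held 2805 barcodes and 5086306 UMIs. Filters left 2941 and 2729 barcodes (median 1498 and 1502 UMIs), and 3 barcode sequences occurred in both libraries. Each group is 1 library, so no difference could be tested, and all intervals below are 95% intervals for counting error only. CPM denotes counts of UMIs scaled to a total of 1000000 per population. For Bicd2 itself, the ratio of the shBicd2 label over the scramble label depended on the barcodes taken. In the main population, defined below, it was 1.54 (1.10 to 2.18), from levels of 20.8 CPM and 13.5 CPM. Over all kept barcodes it was 1.21 (0.896 to 1.63). In the mitochondria-rich barcodes, also defined below, 4 and 8 UMIs gave 0.616 (0.136 to 2.30). The first interval lies above 1, the side opposite to a knockdown, and the last 2 include 1. The target gene thus gave no support for the labels, and the reason was not tested. Most kept barcodes, 80.9% and 78.7%, fell into 7 clusters that no marker list set apart and that are called the main population here, with all 14 hepatocyte markers detected and 1.80% and 1.35% of UMIs on them. A smaller cluster of 260 and 282 barcodes, rich in mitochondrial RNA, was hepatocyte-like by its markers, which held 5.79% and 3.11% of its UMIs. The other 303 and 299 barcodes lay in 5 clusters led by genes of other cell types. Clusters were computed without the 10 genes or the wider bile acid list. Within the main population the 2 libraries shared few clusters. Cluster 0 held 1208 barcodes of the library labelled shBicd2 and 31 of the library labelled scramble, and cluster 1 held 73 and 911. Of the 7 main-population clusters, 3 had at least 50 barcodes in each library. The mitochondria-rich and non-hepatocyte barcodes were more evenly split. What sets the libraries apart and the hairpin cannot be told apart.

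In the main population, Cyp27a1 and Abcb11 were lower in the library labelled shBicd2 by more than 1.5-fold, and Cyp7b1 and Baat were lower by less. Slc27a5 was higher by less than 1.5-fold. Nr1h4, at 0.871 (0.742 to 1.02), was within counting error of 1, and Cyp8b1 had a ratio near 1 (1.02, or 0.924 with TMM scaling). Cyp7a1, Nr0b2 and Slc10a1 were near the limit of detection in both libraries. Of the 7 genes with at least 50 UMIs in the 2 libraries together, 0 were at least 1.5-fold higher and 2 were at least 1.5-fold lower. Over all 9313 genes with that many UMIs, 22.4% were at least 1.5-fold higher and 10.3% at least 1.5-fold lower. The median log2 ratio was -0.21 over the 7 genes and 0.13 over all genes tested. The UMI values count molecules at the 3' end and are not divided by transcript length, so levels are compared between libraries and populations, not between genes.

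**Figure D1:**
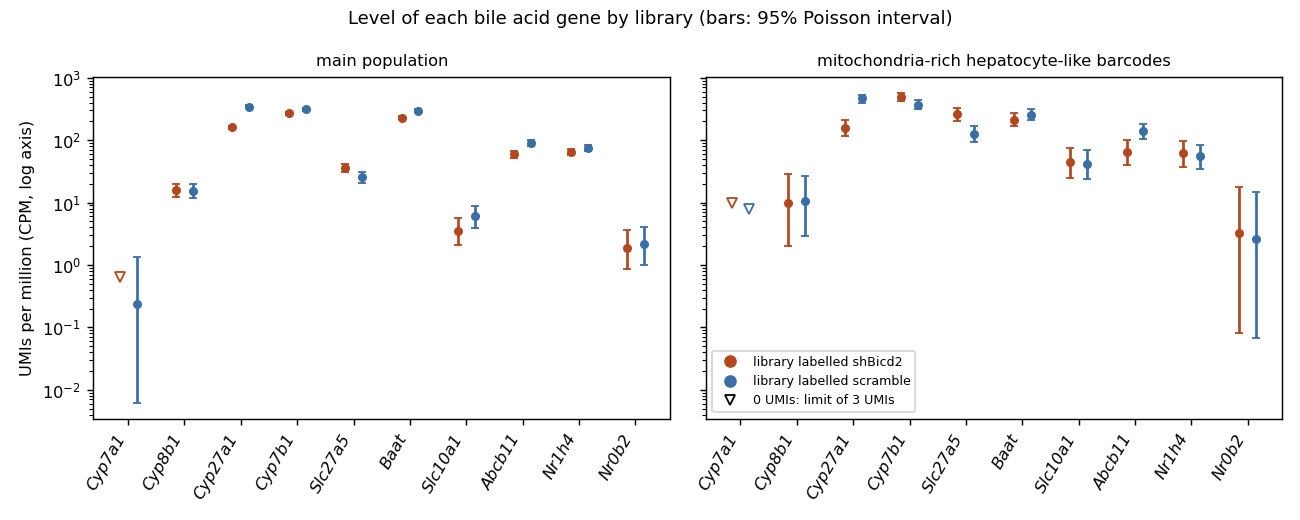
Level of each of the 10 genes in CPM (log axis) in the main population (left) and the mitochondria-rich hepatocyte-like barcodes (right), with the library labelled shBicd2 left of the library labelled scramble; bars are 95% Poisson intervals and open triangles mark the 3-UMI limit where no UMI was found. Cyp27a1 stands at 160 and 341 CPM in the main population, while Cyp7a1, Slc10a1 and Nr0b2 stay under 10 CPM there.

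The classic route was barely seen. In the main population Cyp7a1 (ENSMUSG00000028240, GRCm38 chr4:6265612-6275633, minus strand) had 0 UMIs with the shBicd2 label, which allows up to 0.631 CPM, and 1 UMI with the scramble label, 0.241 CPM (0.00609 to 1.34). Over all kept barcodes it had 1 UMI in each library. No ratio can be read from these counts.

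Cyp8b1 (ENSMUSG00000050445, chr9:121914356-121916305, minus strand, a single-exon gene of 1950 bases) had 75 UMIs, 15.8 CPM (12.4 to 19.8), with the shBicd2 label and 64 UMIs, 15.4 CPM (11.9 to 19.7), with the scramble label, both in the main population. The ratio was 1.02 (0.724 to 1.45), so no difference was detectable at this depth, and one within that interval could have been missed. A UMI of Cyp8b1 was found in 2.69% and 2.47% of main-population barcodes, and in 1.12% and 1.47% when barcodes were thinned to a depth of 1000 UMIs. Among non-hepatocyte barcodes it was found in 0.330% in the library labelled shBicd2 and in 0 of 299 in the library labelled scramble, where no UMI allows up to 8.41 CPM. Median depths were 1697 and 1665 UMIs in the main population and 781 and 820 in the non-hepatocyte clusters.

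The even total of Cyp8b1 hid an uneven spread over clusters. In the library labelled shBicd2, cluster 6, led by the heat shock genes Hspb1, Hspa1a and Hspa1b, held 15.2% of main-population barcodes but 42 of the 75 UMIs, 56.0%, at 40.6 CPM (29.2 to 54.8). Cluster 0, led by G0s2 and with 50.8% of the barcodes, held 4 UMIs at 1.84 CPM (0.502 to 4.72). With the scramble label, cluster 2, led by the interferon-response genes Ifit2, Ifit1 and Rsad2, held 33.8% of the barcodes and 54 of the 64 UMIs, 84.4%, at 32.5 CPM (24.4 to 42.4). The other well-filled scramble clusters, 1 and 5, were at 2.80 CPM (0.762 to 7.17) and 2.34 CPM (0.284 to 8.47). Within cluster 2, which both libraries filled, Cyp8b1 stood at 34.0 CPM with the shBicd2 label and 32.5 CPM with the scramble label, a ratio of 1.05 (0.430 to 2.21). Most Cyp8b1 UMIs thus came from the heat shock cluster with the shBicd2 label and from the interferon cluster with the scramble label, while cluster 2 was high in both.

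The same clusters were rich in EGFP, the transcript of a fluorescent protein that mice lack, for which the labels name no vector. Over both libraries, clusters 6, 3 and 2 held 3239, 632 and 337 CPM of it, and no other main-population cluster exceeded 83.4 CPM. EGFP stood at 993 CPM (965 to 1022) and 77.7 CPM (69.5 to 86.7) in the main populations, a ratio of 12.8 (11.4 to 14.3). Barcodes of the library labelled shBicd2 with an EGFP UMI had 27.7 CPM of Cyp8b1 and those without had 8.23 CPM, a ratio of 3.37 (2.04 to 5.73). With the scramble label the values were 43.3 and 12.3 CPM, a ratio of 3.52 (1.92 to 6.19). The interval of each ratio contains the other. Barcodes with an EGFP UMI were also deeper, with medians of 2158.5 against 1514.5 UMIs in the library labelled shBicd2 and 2344 against 1619 UMIs in the library labelled scramble, and the part of depth was not tested. Of the 7 genes with at least 50 UMIs, Cyp8b1 and Abcb11 were at least 1.5-fold higher with EGFP in the library labelled shBicd2, where 8.95% of 7979 genes were. Cyp8b1 and Cyp7b1 were so in the library labelled scramble, where 9.40% of 7212 genes were, and Cyp27a1 was lower there at 0.559 (0.442 to 0.698), as were 41.2% of genes.

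The stretch around the start of Cyp8b1, chr9:121916256-121916555 on the minus strand of GRCm38.p6 (RefSeq), is shown because it holds letters of the kind that Hnf4a and Nr5a2, 2 receptors of the wider list, are known to bind. It runs from 250 bases before to 50 bases after the annotated start. Capitals mark CAAAGTCCA, an HNF4-type match that begins 67 bases before the start, and CAAGGNCA, an NR5A2-type match that begins 60 bases before it, and the 2 matches overlap. Both strands of 32851 RefSeq promoters of that length were searched, and 0.475% held the first and 6.71% the second.
Cyp8b1: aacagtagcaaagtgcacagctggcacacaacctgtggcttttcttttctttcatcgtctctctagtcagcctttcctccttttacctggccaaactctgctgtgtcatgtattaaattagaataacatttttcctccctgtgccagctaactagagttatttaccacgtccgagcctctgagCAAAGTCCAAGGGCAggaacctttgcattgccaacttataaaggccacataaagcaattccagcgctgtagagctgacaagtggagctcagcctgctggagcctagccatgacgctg
A match is a description of the letters only. Hnf4a and Nr5a2 RNA were lower with the shBicd2 label, with values given below, while Cyp8b1 had a ratio of 1.02.

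Cyp27a1, the first enzyme of the alternative route (ENSMUSG00000026170, chr1:74713574-74737892, plus strand), gave the widest gap of the 10 genes among those with at least 50 UMIs. It had 763 UMIs, 160 CPM (149 to 172), with the shBicd2 label and 1419 UMIs, 341 CPM (324 to 360), with the scramble label, both in the main population. The ratio was 0.470 (0.430 to 0.513). At least 1 UMI was found in 23.9% and 40.3% of barcodes, and in 14.2% and 25.5% after thinning. At least 2 UMIs were found in 143 of 2378 and 351 of 2148 barcodes.

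The gap in Cyp27a1 recurred in the populations that both libraries filled. Within clusters 1, 2 and 3 the ratios were 0.394 (0.169 to 0.784), 0.501 (0.336 to 0.722) and 0.565 (0.383 to 0.859). In the mitochondria-rich hepatocyte-like barcodes it stood at 159 CPM and 466 CPM, a ratio of 0.341 (0.243 to 0.470). In the non-hepatocyte clusters it stood at 102 CPM (71.2 to 141) and 210 CPM (165 to 264), a ratio of 0.484 (0.316 to 0.729). The direction was thus the same in main, mitochondria-rich and non-hepatocyte barcodes. These are not independent observations, because barcodes of a library can share free RNA, from outside the cell, which was not separated here. After thinning, Cyp27a1 was found in 9.35% and 23.2% of non-hepatocyte barcodes, against 14.2% and 25.5% of the main population. In the main population, clusters of at least 50 barcodes ran from 116 to 259 CPM with the shBicd2 label and from 263 to 576 CPM with the scramble label. Intervals of single clusters overlapped between the libraries. Clusters of 1 library are not replicates, and how many other genes have ranges set apart in this way was not counted. The highest of these clusters was cluster 5 of the library labelled scramble, led by the glutamate transporter Slc1a2, at 576 CPM (526 to 629).

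Cyp27a1 also differed along the lobule, the unit of liver running from portal to central vein. Barcodes were ordered by the share of pericentral genes among 8 pericentral and 11 periportal genes, and the top tercile, the most pericentral barcodes, was set against the barcodes at the periportal end. Cyp27a1 stood at 213 CPM in the pericentral barcodes and 106 CPM in the periportal barcodes with the shBicd2 label, a ratio of 2.0 (1.67 to 2.42), and at 464 and 224 CPM in those with the scramble label, a ratio of 2.07 (1.80 to 2.38). The interval of each ratio contains the other, and both zones stood lower with the shBicd2 label. Cyp7b1 had ratios of 1.17 (1.02 to 1.33) and 1.60 (1.39 to 1.85), Nr1h4 of 1.17 (0.888 to 1.54) and 1.74 (1.31 to 2.31), and Baat of 0.947 and 1.09. Cyp8b1 had a ratio of 2.0 (1.12 to 3.64) with the shBicd2 label and of 0.841 (0.382 to 1.79) with the scramble label. Among genes with at least 50 UMIs, Cyp27a1 and Cyp8b1, 2 of the 7 bile acid genes, were at least 1.5-fold higher in pericentral barcodes in the library labelled shBicd2, where 3.07% of genes were, and Cyp27a1, Cyp7b1 and Nr1h4, 3 of 6, in the library labelled scramble, where 7.08% were. Many barcodes had few UMIs of these lists, and 1062 and 859 lay within 2 percentage points of a boundary, so the order is coarse. The top tercile began at a pericentral share of only 9.09% with the shBicd2 label and 14.3% with the scramble label. Its barcodes were also deeper than those at the periportal end, with medians of 2177 against 1693.5 UMIs and 2071 against 1659 UMIs. The part of depth was not tested.

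The start of Cyp27a1, chr1:74713285-74713584 on the plus strand of GRCm38.p6, is shown because this gene differed most, for comparison with the starts of Cyp8b1 and Abcb11. None of the 4 motifs searched, which were the 2 above and the 2 named below for Abcb11, has its letters in this window, which says nothing of the factors themselves.
Cyp27a1: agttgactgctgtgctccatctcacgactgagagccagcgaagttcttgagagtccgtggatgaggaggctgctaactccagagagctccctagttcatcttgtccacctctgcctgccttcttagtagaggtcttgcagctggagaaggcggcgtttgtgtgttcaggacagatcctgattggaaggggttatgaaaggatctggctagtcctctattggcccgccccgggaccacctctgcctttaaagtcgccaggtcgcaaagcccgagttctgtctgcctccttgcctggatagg

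Cyp7b1, the oxysterol hydroxylase of the alternative route (ENSMUSG00000039519, chr3:18071950-18243338, minus strand, with the small RNA gene Gm23686 on the same strand inside it), had 1289 UMIs, 271 CPM (256 to 286), with the shBicd2 label and 1303 UMIs, 314 CPM (297 to 331), with the scramble label. The ratio in the main population was 0.864 (0.80 to 0.934). Its direction varied with the barcodes compared. It was lower with the shBicd2 label in cluster 2, at 255 and 418 CPM (ratio 0.610, 0.461 to 0.795), and in cluster 3, at 311 and 487 CPM (0.639, 0.482 to 0.862). It was higher with that label in cluster 1, at 407 and 207 CPM (1.96, 1.28 to 2.90), and in the mitochondria-rich barcodes, at 493 and 372 CPM (1.33, 1.05 to 1.68). Among barcodes without an EGFP UMI the ratio was 1.02.

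The conjugation enzymes went opposite ways in the main population as a whole, but not in each cluster. Slc27a5, the bile acid CoA ligase (ENSMUSG00000030382, chr7:12988346-12998192, minus strand), had 170 UMIs, 35.7 CPM (30.6 to 41.5), with the shBicd2 label and 106 UMIs, 25.5 CPM (20.9 to 30.8), with the scramble label, a ratio of 1.40 (1.09 to 1.80). With an estimate of free RNA taken off, the ratio was 0.139. That setting removed 0.729 and 0.731 of each main-population total, and no interval was computed for its ratio, so its size is not read. In clusters 1, 2 and 3 the ratios of Slc27a5 were 3.66 (1.26 to 8.83), 1.09 (0.376 to 2.58) and 0.838 (0.296 to 3.27). The first rests on 6 UMIs with the shBicd2 label. In the mitochondria-rich barcodes the values were 260 CPM (206 to 323) and 126 CPM (93.3 to 168), a ratio of 2.05 (1.42 to 3.00). Baat, the transferase that follows it (ENSMUSG00000039653, chr4:49489422-49506557, minus strand), had 1099 UMIs, 231 CPM (218 to 245), with the shBicd2 label and 1234 UMIs, 297 CPM (281 to 314), with the scramble label, a ratio of 0.778 (0.717 to 0.845). Baat had ratios of 1.01 (0.635 to 1.54), 0.708 (0.503 to 0.973) and 0.666 (0.435 to 1.06) in clusters 1, 2 and 3. Its levels followed the clusters. With the shBicd2 label it stood at 306 CPM (283 to 330) in cluster 0 and at 154 CPM (131 to 179) in the heat shock cluster 6, and with the scramble label at 330 CPM (301 to 361) in cluster 1 and 252 CPM (229 to 278) in the interferon cluster 2. The clusters that were high in Cyp8b1 were thus lower in Baat in both libraries.

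**Figure D2:**
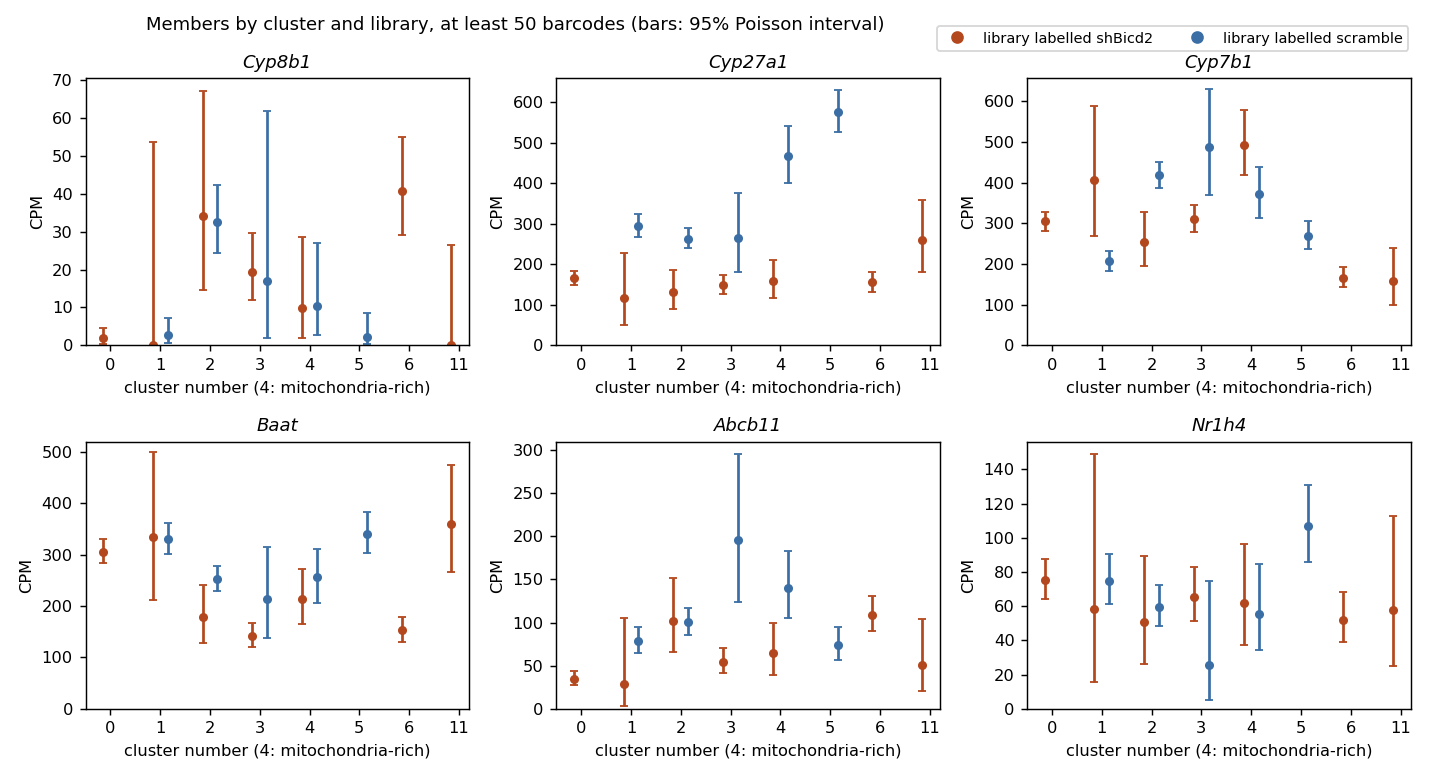
CPM of 6 genes in each main-population cluster and in the mitochondria-rich cluster 4, for clusters with at least 50 barcodes in that library, with the library labelled shBicd2 left of the library labelled scramble and 95% Poisson intervals. Cyp8b1 is concentrated in clusters 6, 2 and 3. Cyp27a1 points of the library labelled shBicd2 reach 259 CPM and the lowest scramble point is 263 CPM, with overlapping intervals.

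Of the 2 transporters, Abcb11 had enough UMIs to compare. This canalicular export pump (ENSMUSG00000027048, chr2:69238282-69342616, minus strand) overlaps an antisense gene, Gm13613, and a pseudogene, Gm13614, on the other strand. The sources used here do not say whether counting used strand. It had 283 UMIs, 59.5 CPM (52.8 to 66.9), with the shBicd2 label and 372 UMIs, 89.5 CPM (80.6 to 99.1), with the scramble label, a ratio of 0.665 (0.568 to 0.778), which is just past the 1.5-fold line. The ratio varied by cluster. In cluster 2 the levels were 102 and 101 CPM (ratio 1.01, 0.632 to 1.56), and in cluster 3 they were 54.5 and 196 CPM (0.277, 0.169 to 0.471). In the mitochondria-rich barcodes they were 64.9 and 140 CPM (0.465, 0.263 to 0.791). Within the library labelled shBicd2, the heat shock cluster 6 reached 109 CPM (90.0 to 131) and cluster 0 stood at 35.0 CPM (27.6 to 43.8), the same order as for Cyp8b1. Barcodes of that library with an EGFP UMI had 83.2 CPM and those without had 44.6 CPM, a ratio of 1.87 (1.47 to 2.38), while in the library labelled scramble the levels were 93.8 and 89.0 CPM, a ratio of 1.05 (0.736 to 1.47).

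The start of Abcb11, chr2:69342567-69342866 on the minus strand of GRCm38.p6, is shown because Nr1h4, another of the 10 genes, is known to act on this gene through an inverted repeat. Capitals mark GGNCANTGNCC, an inverted repeat with 1 base between its arms that begins 62 bases before the annotated start, and AGGTCA, a receptor half-site read on the other strand, which overlaps it. The first was found in 0.676% and the second in 16.3% of the same promoters. Of the 6 genes with an entry in the promoter table, 1 held the inverted repeat and 3 held the half-site.
Abcb11: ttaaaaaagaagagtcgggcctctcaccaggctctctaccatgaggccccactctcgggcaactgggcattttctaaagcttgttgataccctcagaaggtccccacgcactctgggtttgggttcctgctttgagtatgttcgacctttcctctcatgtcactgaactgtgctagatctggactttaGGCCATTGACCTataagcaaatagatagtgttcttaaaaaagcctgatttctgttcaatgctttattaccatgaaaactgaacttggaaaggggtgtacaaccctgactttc

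Slc10a1, the uptake carrier (ENSMUSG00000021135, chr12:80953183-80968705, minus strand), had 17 UMIs, 3.57 CPM (2.08 to 5.72), in the main population with the shBicd2 label and 25 UMIs, 6.02 CPM (3.89 to 8.88), with the scramble label. The ratio was 0.594 (0.301 to 1.15), and its interval includes 1. Over every deposited barcode it had 33 and 51 UMIs, a ratio of 0.585 (0.366 to 0.924). Within cluster 2 the direction was the other way, with 6 and 8 UMIs, 25.5 and 4.82 CPM, a ratio of 5.30 (1.51 to 17.4). The carrier was found mainly in the mitochondria-rich barcodes relative to their number, at 45.4 CPM (24.8 to 76.2) and 42.2 CPM (24.1 to 68.5), a ratio of 1.08 (0.487 to 2.36).

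**Figure D3:**
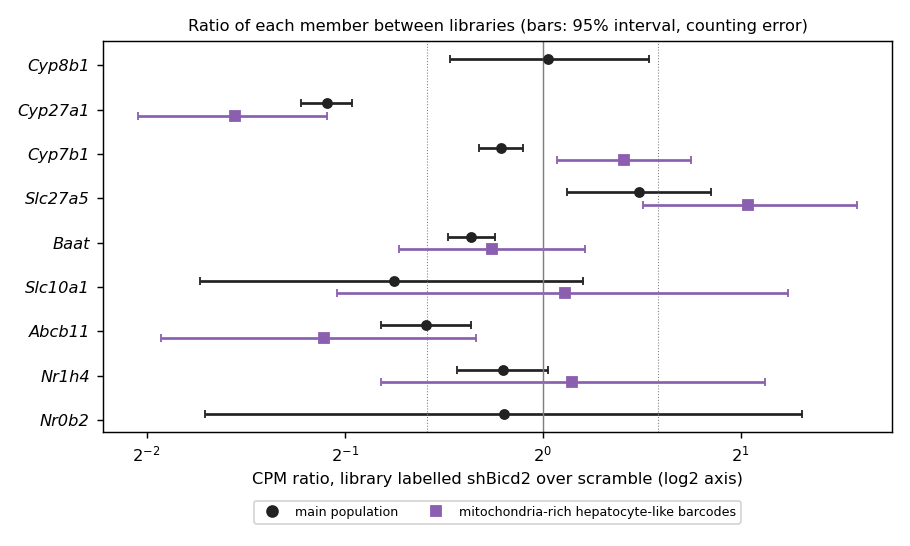
Ratio of CPM, library labelled shBicd2 over library labelled scramble (log2 axis), for each gene in the main population (circles) and the mitochondria-rich barcodes (squares) where at least 10 UMIs were found, with 95% intervals for counting error. Dotted lines mark 1.5-fold. Cyp27a1 and Abcb11 lie left of 1 in both, at 0.470 and 0.665 in the main population, and Cyp7b1 changes side.

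The receptor Nr1h4 (ENSMUSG00000047638, chr10:89454234-89533585, minus strand) had 312 UMIs, 65.6 CPM (58.5 to 73.3), with the shBicd2 label and 313 UMIs, 75.3 CPM (67.2 to 84.1), with the scramble label. The ratio of 0.871 (0.742 to 1.02) was within counting error of 1. Among clusters with at least 50 barcodes in a library it was highest in cluster 5 of the library labelled scramble, at 107 CPM (85.9 to 131), the cluster that was also highest in Cyp27a1 among these. Nr0b2, the repressor that Nr1h4 is known to induce (ENSMUSG00000037583, chr4:133553376-133556536, plus strand), had 9 UMIs in each main population, 1.89 CPM (0.865 to 3.59) with the shBicd2 label and 2.17 CPM (0.990 to 4.11) with the scramble label. Its ratio of 0.874 had an interval of 0.307 to 2.48, too wide to place it.

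Summed over the 6 synthesis and conjugation genes, the main population held 3396 UMIs, 714 CPM, with the shBicd2 label and 4127 UMIs, 993 CPM, with the scramble label, a ratio of 0.719 (0.687 to 0.753). The 2 transporters summed to 300 UMIs, 63.1 CPM, and 397 UMIs, 95.5 CPM, a ratio of 0.660 (0.566 to 0.769). There were 11.3 synthesis UMIs per transporter UMI with the shBicd2 label and 10.4 with the scramble label. The ratio of these was 1.09 (0.928 to 1.28), so a difference between synthesis and transport was not detectable within counting error. This sum rests on Abcb11 for transport and on Cyp27a1, Cyp7b1 and Baat for synthesis, and it differs by population: in the mitochondria-rich barcodes the ratio was 1.52. Gene by gene, the median log2 ratio was -0.21 (-0.47 to -0.10) over the 5 synthesis and conjugation genes with at least 10 UMIs and -0.66 (-1.27 to -0.08) over the 2 transporters.

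The mitochondria-rich hepatocyte-like barcodes carried a different mix of these genes from the main population of their own library. Slc10a1 was higher there by a ratio of 12.7 (5.80 to 27.4) in the library labelled shBicd2 and 7.01 (3.50 to 13.7) in the library labelled scramble. Slc27a5 was higher by 7.26 (5.50 to 9.53) and 4.96 (3.45 to 7.04). Both genes thus stood out in each library. Cyp7b1 had ratios of 1.82 (1.53 to 2.16) and 1.18 (0.989 to 1.41), Cyp27a1 of 0.991 (0.727 to 1.32) and 1.37 (1.16 to 1.60), and Abcb11 of 1.09 (0.656 to 1.72) and 1.56 (1.15 to 2.08). Baat and Nr1h4 were within counting error of their main-population level in both libraries. Among genes with at least 50 UMIs, 2 of the 7 bile acid genes were at least 1.5-fold higher in each library, against 16.4% of 8161 genes with the shBicd2 label and 14.3% of 7491 genes with the scramble label. Slc10a1 had too few UMIs to enter that count. Between libraries, 1 of 5 bile acid genes was at least 1.5-fold higher in these barcodes and 2 were at least 1.5-fold lower, where 22.9% and 31.1% of 2009 genes were. These barcodes were shallower, with medians of 911 and 1127 UMIs against 1697 and 1665 in the main population, and had a median of 5.90% and 4.23% mitochondrial UMIs against 0.289% and 0.154%. Their hepatocyte markers summed to 57862 and 31060 CPM against 18015 and 13545 CPM in the main population. Several marker lists of other cell types also stood higher there. Erythroid markers stood at 1977 and 624 CPM against 232 and 161 CPM. Monocyte and macrophage markers stood at 156 and 42.2 CPM against 43.1 and 14 CPM. Neutrophil markers stood at 5836 and 2232 CPM against 2135 and 1488 CPM. Most of that sum was the acute-phase gene Lcn2, at 5044 and 2113 CPM against 1960 and 1427 CPM. The sum alone is therefore not read as neutrophil RNA. The part of the sum that was not Lcn2 was also higher there than in the main population in both libraries. Cholangiocyte markers stood at 2197 and 538 CPM against 2395 and 560 CPM. The part of these in the results was not tested.

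**Figure D4:**
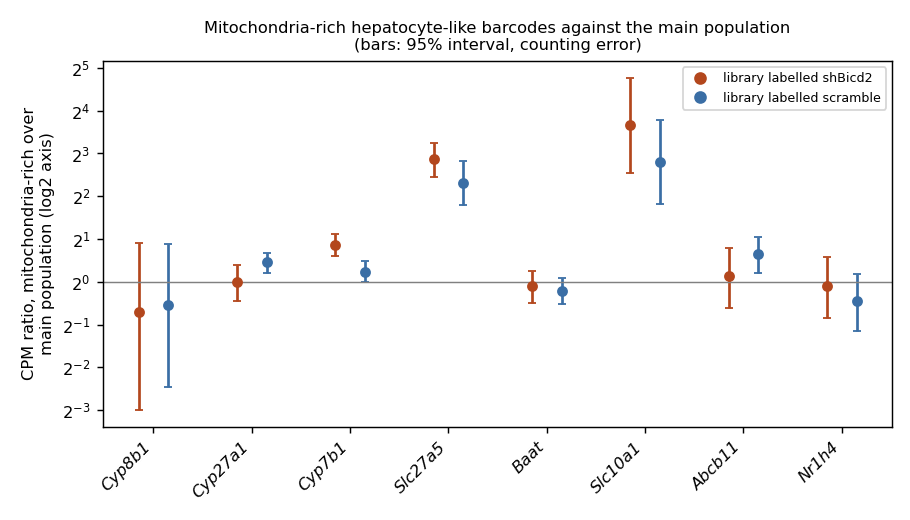
Ratio of CPM, mitochondria-rich hepatocyte-like barcodes over main population (log2 axis), within the library labelled shBicd2 (left of each pair) and the library labelled scramble, for genes with at least 20 UMIs in the 2 populations, with 95% intervals for counting error. Slc10a1 (12.7 and 7.01) and Slc27a5 (7.26 and 4.96) lie far above 1 in both libraries, and the other genes lie between 0.617 and 1.82.

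Bile acid RNA was also found in barcodes of other cell types, which bears on how shares of barcodes can be read. Before thinning, a UMI of Cyp27a1 was found in 8.91% and 16.1% of non-hepatocyte barcodes, of Cyp7b1 in 14.2% and 12.4%, of Baat in 12.9% and 16.1%, of Abcb11 in 1.98% and 6.02%, and of Nr1h4 in 4.62% and 7.02%. After thinning to 1000 UMIs, which left out 196 and 187 of these barcodes and 503 and 448 of the main population, Baat was found in 17.8% and 16.1% of non-hepatocyte barcodes, against 20.1% and 24.6% of the main population. Cyp7b1 was found in 15.0% and 16.1%, against 21.1% and 23.0%, and Cyp27a1 in 9.35% and 23.2%, against 14.2% and 25.5%. In the library labelled scramble the thinned non-hepatocyte shares of Abcb11, Nr1h4, Slc27a5 and Slc10a1, at 8.04%, 10.7%, 2.68% and 2.68%, were above the main-population shares of 7.41%, 7.0%, 2.18% and 0.471%, so in that library these shares alone are not read as expression. The comparison rests on the few non-hepatocyte barcodes that thinning left. Before it, the levels with the scramble label were 89.5 CPM (80.6 to 99.1) of Abcb11 in the main population against 53.3 CPM (32.1 to 83.2) in non-hepatocyte barcodes. Nr1h4 was at 75.3 CPM against 70.1 CPM (45.3 to 103), Slc27a5 at 25.5 CPM against 19.6 CPM (7.89 to 40.4) and Slc10a1 at 6.02 CPM against 8.41 CPM (1.73 to 24.6). In the library labelled shBicd2 the same 4 genes were at 1.87%, 4.67%, 0.935% and 0 in non-hepatocyte barcodes and at 5.81%, 6.29%, 3.79% and 0.320% in the main population. The ratios between libraries therefore compare the RNA pool of each library, in which free RNA and RNA within cells were not separated.

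Sums of marker lists of other cell types differed between the libraries in the main population. The 11 cholangiocyte markers summed to 2395 CPM with the shBicd2 label and 560 CPM with the scramble label, with 4 and 5 of them at 0. Among main-population clusters, 3 of the 11 were raised in cluster 6 and 1 in each of clusters 3 and 11. None of these clusters took that class name, so the sum alone is not read as cholangiocyte RNA. The 16 neutrophil markers summed to 2135 and 1488 CPM, mostly from Lcn2, whose values follow, so this sum alone is not read as neutrophil RNA. The part of it that was not Lcn2 was also higher with the shBicd2 label. The 10 erythroid markers summed to 232 and 161 CPM, and the 14 monocyte and macrophage markers to 43.1 and 14 CPM. The neutrophil, erythroid, and monocyte and macrophage lists each had 2 markers at 0 in either library. Among acute-phase and cytokine genes, Saa1 stood at 9549 and 12828 CPM, Hp at 4036 and 4111 CPM, Lcn2 at 1960 and 1427 CPM and Tnf at 13.7 and 4.33 CPM. Il1b had 10 and 11 UMIs and Il6 had 1 and 4. The part of these in the bile acid results was not tested.

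The wider pathway held more genes that were higher than lower with the shBicd2 label. Of 58 other listed genes, 56 were features and 41 had at least 50 UMIs in the main population of the 2 libraries together. Of these 41, 18 were at least 1.5-fold higher with the shBicd2 label, 6 were at least 1.5-fold lower and 17 lay between, against 22.4% and 10.3% of all genes.

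Among 13 other synthesis genes, 6 were higher and 1 was lower. Hsd3b7, the steroid dehydrogenase that acts after Cyp7a1 or Cyp7b1, stood at 228 CPM and 102 CPM, a ratio of 2.25 (2.01 to 2.52). Amacr, the racemase of the side chain, stood at 33.2 and 14.4 CPM (2.30, 1.70 to 3.15), and Por, which passes electrons to microsomal P450 enzymes, at 379 and 228 CPM (1.66, 1.54 to 1.80). The very-long-chain CoA ligase Slc27a2 was at 194 and 111 CPM (1.75, 1.56 to 1.96). The peroxisomal oxidase Acox2 had a ratio of 1.33 (1.13 to 1.57), the peroxisomal enzyme Hsd17b4 of 1.37 (1.03 to 1.84), the sterol carrier Stard4 of 1.19 (1.03 to 1.38), the reductase Akr1c6 of 0.934 (0.731 to 1.19) and the carrier Scp2 of 0.912 (0.866 to 0.961). The exception was Cyp2c70, the mouse enzyme that makes muricholic acids, at 130 CPM (120 to 141) against 1054 CPM, a ratio of 0.123 (0.113 to 0.134).

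Other uptake and export genes differed in direction. Slco1b2 and Slco1a1, organic anion carriers of the blood-facing membrane, were lower with the shBicd2 label, at 33.6 and 109 CPM (0.308, 0.256 to 0.370) and at 39.5 and 84.7 CPM (0.467, 0.389 to 0.559). The remaining uptake gene with at least 50 UMIs, Slco2b1, named after its value was seen because the count is small, had a ratio of 2.39 (1.62 to 3.58). Of 7 export genes, 4 were higher and 0 were lower. Abcc3, which exports bile acid conjugates back to blood, stood at 40.8 and 10.3 CPM (3.94, 2.82 to 5.62), the phospholipid exporter Abcb4 at 43.1 and 22.6 CPM (1.91, 1.49 to 2.46) and the sterol exporter Abcg5 at 45.8 and 21.7 CPM (2.12, 1.65 to 2.74). The canalicular conjugate pump Abcc2 had a ratio of 1.13 (0.995 to 1.27) and the phospholipid flippase Atp8b1 of 1.04 (0.791 to 1.37). Abcb11 at 0.665 was on the other side of 1 from Abcc3, Abcb4 and Abcg5.

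Among 15 regulators, 5 were higher and 3 were lower. Nr5a2, a nuclear receptor that drives Cyp8b1, was lower and stood at 62.7 and 127 CPM (0.495, 0.428 to 0.572), Hnf4a at 122 and 194 CPM (0.628, 0.564 to 0.700) and the fatty acid receptor Ppara at 101 and 163 CPM (0.622, 0.552 to 0.700). The oxysterol receptor Nr1h2 (1.58, 1.33 to 1.88), the coactivator Ppargc1a (1.86, 1.37 to 2.54) and Foxa2 (1.58, 1.23 to 2.04) were higher. The nuclear receptors Nr1i2 and Nr1h3 had ratios of 1.28 (1.11 to 1.48) and 1.16 (0.968 to 1.38), and the transcription factor Mafg of 1.37 (1.27 to 1.47). Rxra, the partner of Nr1h4 on DNA, had a ratio of 1.27 (1.11 to 1.46), and Fgfr4, the hepatic receptor for intestinal Fgf15, of 0.960 (0.766 to 1.20). Of 3 detoxification genes, 2 were higher, namely the hydroxylase Cyp3a11 at 66.4 and 27.7 CPM (2.40, 1.93 to 3.00) and the glucuronosyltransferase Ugt2b5 at 62.7 and 16.8 CPM (3.72, 2.86 to 4.90).

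**Figure D5:**
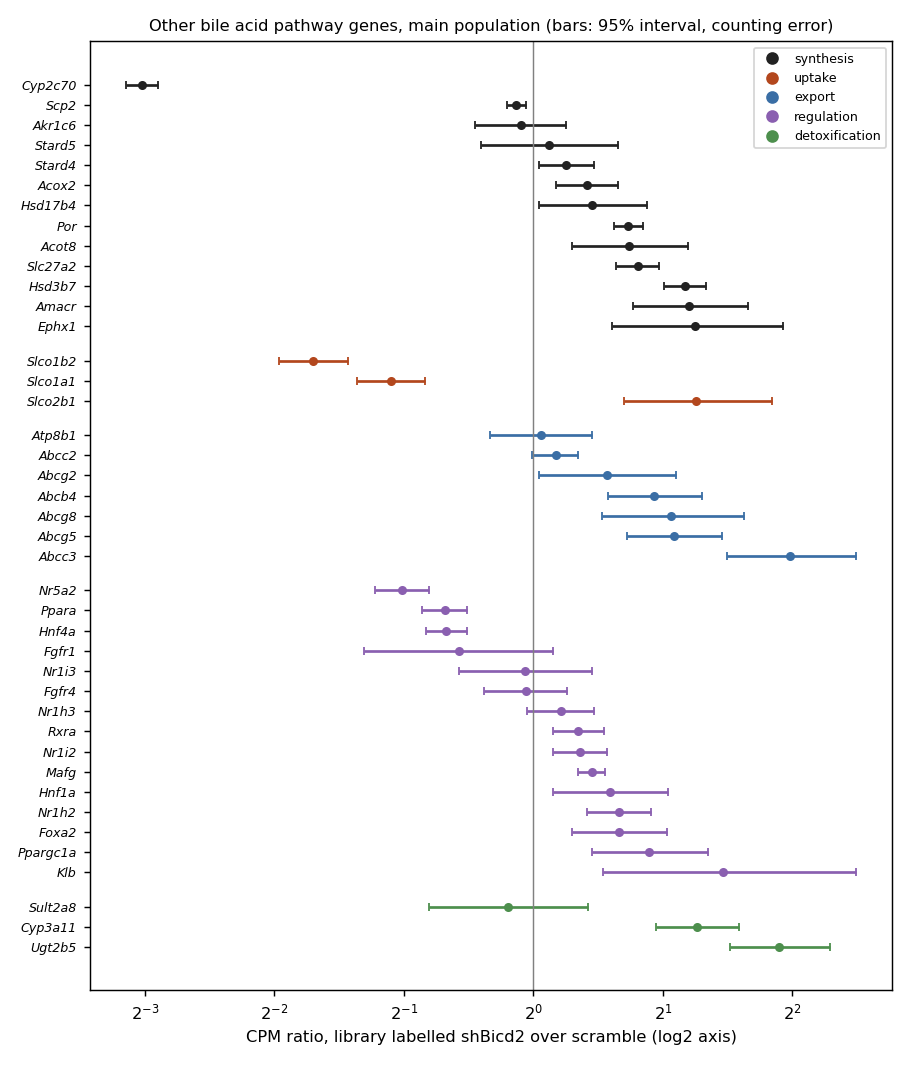
Ratio of CPM, library labelled shBicd2 over library labelled scramble (log2 axis), in the main population for the 41 other bile acid pathway genes with at least 50 UMIs, grouped by role, with 95% intervals for counting error. Cyp2c70 lies lowest at 0.123 and Abcc3 highest at 3.94, and regulators lie on both sides of 1.

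Across 19 points, 11 clusters of the library labelled shBicd2 and 8 of the library labelled scramble, the genes most like each of the 3 most abundant members were listed by Pearson correlation of log2(CPM + 10) among 6178 genes. The points share their library, and several clusters share free RNA, so this is a description. Closest to Cyp27a1 were the mannosidase Man1a (r = 0.86), the lipopolysaccharide-binding protein Lbp (0.84) and the phosphatidate phosphatase Lpin1 (0.83). Closest to Cyp7b1 were Hpx, which binds heme (0.85), the protease inhibitor Spint2 (0.83) and the haemoglobin-binding Hp (0.82). Closest to Baat were the glycolate oxidase Hao1 (0.90), Foxred1 (0.86) and Mif4gd (0.85). In the main population the Cyp27a1 matches had ratios between libraries of 0.371, 0.405 and 0.496, against 0.470 for Cyp27a1. The Cyp7b1 matches had 1.03, 1.44 and 0.982, against 0.864, and the Baat matches 0.785, 0.760 and 0.688, against 0.778. The part of the gap between libraries in these correlations was not tested. Among the bile acid genes themselves, Cyp27a1 and Baat had r = 0.64, Cyp8b1 and Abcb11 had 0.60, Cyp7b1 and Slc27a5 had 0.54, and Cyp8b1 and Baat had -0.31.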

How the data were processed

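Each of the 2 groups is 1 library of mouse liver, prepared with version 3.1 of the 10x 3' kit, per the labels' protocols. The matrices the authors deposited hold raw UMI counts by gene and barcode. Their file headers name Cell Ranger 6.1.2, whereas the submitters' processing notes list mm10, Seurat 4.0.3 and Cell Ranger 6.0.1. Neither the counting of introns nor any removal of doublets is described in the sources used here. No barcode had under 500 UMIs.

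A barcode was kept if it had 200 genes or more and no more than 25% mitochondrial UMIs, which left out 24 and 14. The 73 and 62 highest Scrublet scores were then removed, at 0.8% per 1000 barcodes. Clustering used scanpy 1.11.5 and leidenalg 0.10.2 (resolution 1.0, 15 neighbours, 30 components) on 1991 of 2000 variable genes, the other 9 being bile acid genes. A cluster took a class name only where 3 or more of its markers, and 40% of that class's list, were raised. Each non-hepatocyte cluster took a name by this rule, but these names are not used here because some clusters held markers of mixed classes. The cluster led by Bcl11a, Ighm and Ebf1 was named erythroid, with 8 of 10 erythroid but also 8 of 12 B cell markers raised. UMIs were summed per library and population (numpy 2.4.6, pandas 2.3.3 and scipy 1.17.1 under Python 3.11.15) and divided by the total to give CPM. Intervals at 95% are exact Poisson for levels, exact binomial for shares and exact conditional binomial for ratios. Only those for ratios were tried on simulated counts. These counts were Poisson draws, which the interval itself assumes, so the trial says nothing of the spread between libraries. A count of 0 allows 3 counts. Log2 ratios had 0.5 UMI added to each sum. Lobule scores needed 5 UMIs of both lists together, which 1703 and 1523 barcodes had. The periportal end was every scored barcode with no pericentral UMI, 908 and 774, set against 575 and 509 pericentral ones. No p-value was computed, because barcodes are not replicates. The text names the 10 genes and those of the wider list with at least 200 UMIs. TMM scaling used edgeR 4.0.16. The genes and lists were chosen with earlier results of these data known. GENCODE's annotation of GRCm38 gave the gene coordinates by gene ID, and RefSeq on GRCm38.p6 the promoters, with 7 sequences for 6 of the 10 genes.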

Additional observations from a re-analysis of the deposited data

Results flagged for a closer look

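Cyp7b1, Slc10a1 and Nr1h4 lay on opposite sides of 1 in the mitochondria-rich hepatocyte-like barcodes and in the main population when the library labelled shBicd2 was set over the library labelled scramble. Cyp7b1 had a ratio of 1.33 (1.05 to 1.68) in the first and 0.864 (0.80 to 0.934) in the second, and neither interval includes 1. Slc10a1 had 1.08 and 0.594, and Nr1h4 had 1.11 and 0.871, with intervals that include 1 in both populations. With 1 library per group, the difference between the populations was not tested for any of the 3 genes.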

How the results depend on the processing

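Cyp27a1, Abcb11 and Baat were below 1 under all 12 alternatives run, with ratios of 0.341 to 0.523, 0.465 to 0.768 and 0.553 to 0.858. The alternatives were every deposited barcode, at most 5% mitochondrial UMIs, no doublet removal, all kept barcodes, the mitochondria-rich hepatocyte-like barcodes, TMM factors, a mean over barcodes, thinning, free RNA taken off, barcodes with no EGFP UMI, and, chosen after seeing the data, the 3 main-population clusters with at least 50 barcodes in each library, summed or weighted equally. The synthesis median of -0.21 was 0.08 in the mitochondria-rich barcodes and -0.09 over the shared clusters. The synthesis to transport ratio of 1.09 was 1.52 in the mitochondria-rich barcodes, 0.891 with free RNA taken off, 1.52 without EGFP barcodes and 1.46 with shared clusters weighted equally. Single genes turned direction for Cyp7b1, at 1.33 in the mitochondria-rich barcodes and 1.02 without EGFP barcodes, and for Slc27a5, at 0.139 with free RNA taken off. The cause was not tested. TMM factors lowered each log2 ratio by 0.15, which put Cyp8b1 at 0.924. Cyp8b1 ran from 0.669 to 1.12, Slc10a1 from 0.403 to 1.16 in the 11 settings that gave a value, Nr1h4 from 0.786 to 1.11 and Nr0b2 from 0.225 to 1.28. The free-RNA setting took off 0.729 and 0.731 of each main-population total, from hepatocyte markers in the cluster led by Bcl11a, Ighm and Ebf1, which held mixed cells. Cyp7a1, Nr0b2 and Slc10a1 were limited by depth. No paired analysis was possible because each group has 1 library.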
